A study of Mus musculus with 7 samples.

Results

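Ma macrophages are one of the macrophage groups that the study defined in mammary glands of virgin female mice. Members were the cells that the deposited annotation calls Macrophage Ma and that came from young mice, which gave 121 cells of 13684 in all, and of 498 immune cells of young mice. Young A contributed 40 Ma cells, Young B 20 and Young C 61. The mice were nulliparous females of a mixed FVB, 129 and C57BL/6J background in diestrus, 3 of them young (3 to 4 months) and 4 aged (13 to 14 months), and no transgene or treatment is named for any. The number 4 glands were taken without lymph nodes, dissociated, and sequenced as single cells in droplets from the 3′ ends of transcripts, with 1 library per mouse. Counts of unique molecular identifiers (UMIs, 1 for each captured transcript) were summed per mouse and cell type and are given as CPM, the UMIs of a gene scaled to a fixed total of that sum.

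Tissue macrophages clear dying cells, iron, lipid and matrix fragments through scavenger and lectin receptors, and they can show peptides to T cells on MHC class II molecules. Macrophages of connective tissue in many organs carry the mannose receptor Mrc1, the hyaluronan receptor Lyve1 and the haemoglobin receptor Cd163. In the mammary gland, macrophages lie in the stroma and between the cell layers of the ducts and take part in ductal growth and remodelling. Mb macrophages, the other macrophage group of the study, and dendritic cells were the types set beside Ma.

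The 4 markers of the label were present in Ma of each mouse. Mrc1 stood at 506, 604 and 613 CPM in Young A, B and C, and Cd209f, a C-type lectin of the DC-SIGN family, at 2313, 1431 and 1294. Cd163 stood at 238, 302 and 255 CPM and Lyve1 at 531, 704 and 385. In Mb macrophages Mrc1 was at 3.85, 0 and 10.8 CPM and Cd209f at 0, 13 and 0, and no UMI of Cd163 or Lyve1 was counted. Mrc1, Cd209f and Cd163 are genes by which the study told Ma from Mb, so their separation restates the grouping. Lyve1 was shared with lymphatic endothelium, where it is a standard marker, at 1191 and 1109 CPM in the 2 mice with at least 3 such cells (log2 difference -0.37 ± 0.36 SE, adjusted p = 0.600, edgeR's quasi-likelihood test). Among the other types the highest mean of Mrc1 was 27.8 CPM and that of Cd163 10.5 CPM, both in dendritic cells.

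**Figure D1:**
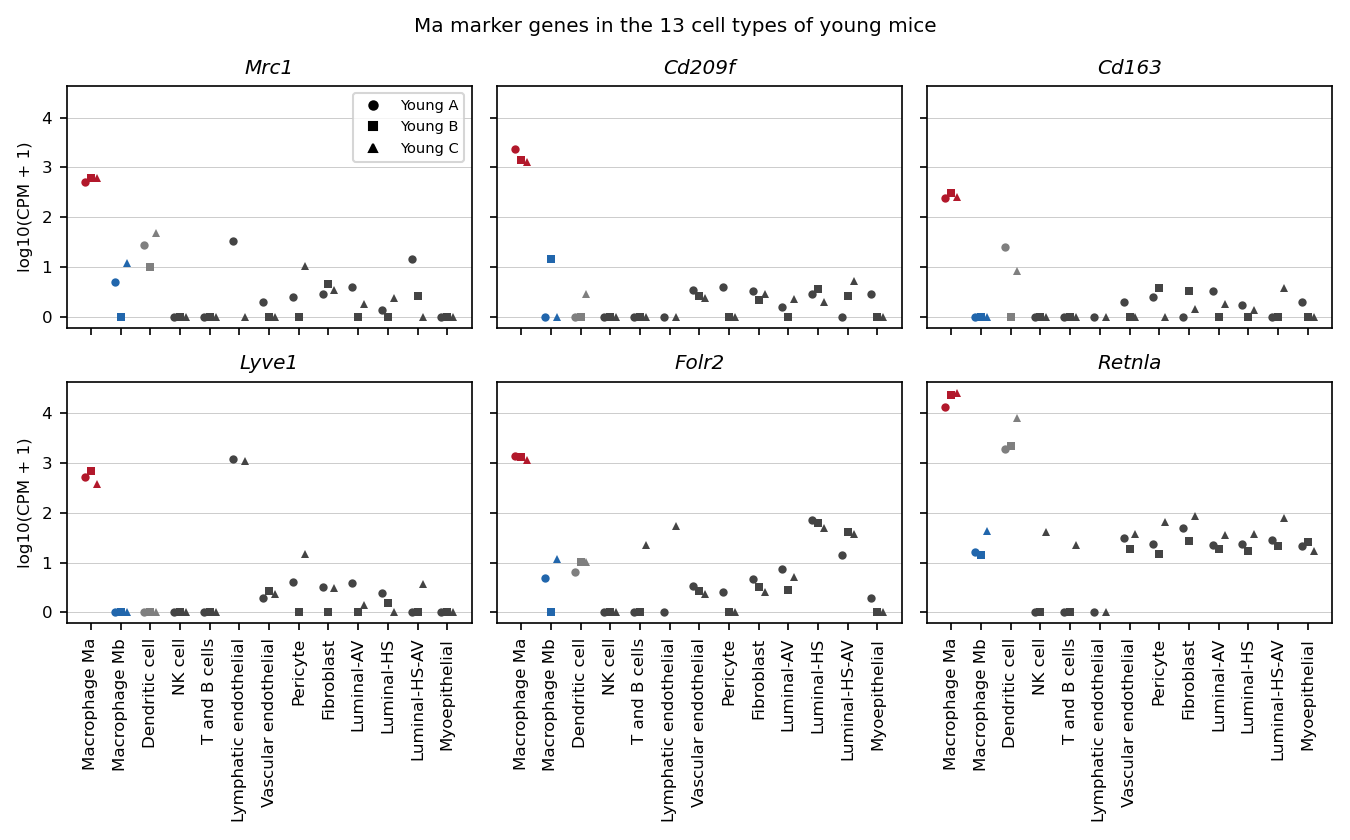
CPM of the 4 marker genes, Folr2 and Retnla in the 13 cell types of young mice, as log10(CPM + 1), 1 point per mouse and type with at least 3 cells. Ma points lie above those of all other types for Mrc1, Cd209f, Cd163, Folr2 and Retnla, while Lyve1 reaches 1191 and 1109 CPM in lymphatic endothelial cells.

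A UMI of Mrc1 was found in 106 of 121 Ma cells (87.6%, exact binomial 95% interval 80.4 to 92.9), of Cd209f in 100 (82.6%), of Lyve1 in 87 (71.9%) and of Cd163 in 64 (52.9%), at a median of 4350 UMIs per cell. In 2903 epithelial cells, which should lack these genes, the highest of the 4 shares was 0.896%, for Cd209f, at a median of 6257 UMIs. With each cell thinned to 2000 UMIs the Ma shares were 66.1% for Mrc1, 73.6% for Cd209f, 50.4% for Lyve1 and 33.1% for Cd163. Before thinning, the Mrc1 share was 77.5%, 90% and 93.4% in Young A, B and C. The interval above pools the cells of these mice and covers counting error only, not the spread over mice. At least 2 of the 4 markers were found in 108 Ma cells (89.3%), in 12 of 6251 other cells of young mice and in 2 of 7311 other cells of aged mice. All 4 were found in 43 Ma cells and none in 3.

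Median depth was 4593.5, 4105 and 4279 UMIs per Ma cell in the 3 mice, and the summed counts held 89448 to 293718 UMIs per mouse. The median of Ma minus that of Mb averaged -539.5 UMIs (SD 217, n = 3 mice, exact sign-flip test, p = 0.25, the smallest p that 3 mice allow). A doublet caller marked 140 of all cells, 4 of them Ma and all in Young C, and 1 Ma cell had a barcode that also occurs in another library. Over 1% of UMIs came from 28 markers of epithelial cells, fibroblasts, endothelial cells and pericytes in 21 Ma cells (7 in Young A, 0 in Young B and 14 in Young C), 7 Mb cells and 6 dendritic cells. The cells had been grouped on these same genes, so the tests give the size of differences and their spread over mice and no independent evidence for the grouping.

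In 1 fit over 13 cell types, 60 of 8816 genes tested (0.681%) were at least 25% higher in Ma than in each of the 12 others, a lower minimum than the 2-fold used for single types, and 53 were at least 2-fold higher. The smallest of the 12 differences among these genes was 0.73 on the log2 scale, for Fcgrt against fibroblasts. DESeq2 gave 31 genes, of which 25 were among the 60. Ranked by the smallest of the 12 differences, and counting genes with the highest value in Ma of every mouse, the leading genes were Cd209g, Cd209f, Fcna, Cd209b, Pla2g2d, Pf4, Ccl24, Folr2, Cd163, F13a1, Mrc1 and Ltc4s. For 23 of the 60 genes the type with the next highest mean was the dendritic cell, for 10 the Mb macrophage, for 7 the fibroblast and for 6 vascular endothelium.

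Fcna (ficolin A), a lectin that activates complement, stood at 557, 861 and 449 CPM in Ma. No UMI of it was counted in Mb macrophages or dendritic cells, so Ma was at least 126-fold and at least 189-fold higher, with a floor of 3 UMIs over each group. Folr2, the beta folate receptor, stood at 1361, 1342 and 1178 CPM, and the next type, hormone-sensing luminal cells (Luminal-HS), was at 71.8, 61.5 and 48.2 (log2 difference 4.30). A UMI of Folr2 was found in 18.0% of epithelial cells and 87.6% of Ma cells. F13a1, the catalytic chain of clotting factor XIII, stood at 612, 1219 and 789.9 CPM against 26.9, 72.5 and 38.2 in dendritic cells (4.09 ± 0.27). Ltc4s, which makes leukotriene C4, stood at 466, 414 and 398 CPM against 23.1, 26.1 and 21.6 in Mb. Its next type was lymphatic endothelium, at 94.0 CPM in Young A and 0 in Young C. That value rests on 3 UMIs, so the ratio of 7.18 had a wide counting interval (2.43 to 35.1). Pla2g2d, a secreted phospholipase, was lower in level at 127, 55.9 and 112 CPM, with no UMI in Mb and 1 in dendritic cells. Hal, a histidine-degrading enzyme, also passed in the fit over all types but came from 2 mice (172, 0 and 429 CPM).

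The Cd209 genes form a cluster on chromosome 8 of GRCm38, and Ma did not hold all of them above other types. In the GENCODE annotation Cd209a, Cd209e, Cd209d, Cd209b, Cd209c and Cd209f lie on the minus strand in that order, from 3743397 to 4105835, and Cd209g follows on the plus strand from 4134098 to 4137707. Cd209g stood at 1098, 1006 and 929 CPM in Ma, Cd209d at 486, 279 and 235, and Cd209b at 147, 246 and 136, each above its level in every other type. Cd209a, a marker of a dendritic cell subset, stood at 75.9, 157 and 40.9 CPM in Ma and 492, 589 and 213 in dendritic cells (log2 difference -2.61 ± 0.35). These genes are close copies, so counts may have been split or lost between them and their levels are uncertain.

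Cd209f and Cd209g, the neighbours with the highest levels in Ma of this cluster, share most of their proximal promoter. Shown are the 250 bases before each RefSeq start site (GRCm38.p6, read along the gene), chr8:4105765-4106014 on the minus strand and chr8:4134486-4134735 on the plus strand, with the longest run that is identical in both, 154 bases, in capitals.
Cd209f: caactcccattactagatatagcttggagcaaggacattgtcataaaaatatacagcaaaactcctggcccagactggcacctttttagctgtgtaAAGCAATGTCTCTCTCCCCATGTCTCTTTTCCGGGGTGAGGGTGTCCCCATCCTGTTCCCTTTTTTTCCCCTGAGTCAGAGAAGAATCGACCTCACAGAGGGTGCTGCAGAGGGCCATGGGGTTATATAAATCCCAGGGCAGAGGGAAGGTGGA
Cd209g: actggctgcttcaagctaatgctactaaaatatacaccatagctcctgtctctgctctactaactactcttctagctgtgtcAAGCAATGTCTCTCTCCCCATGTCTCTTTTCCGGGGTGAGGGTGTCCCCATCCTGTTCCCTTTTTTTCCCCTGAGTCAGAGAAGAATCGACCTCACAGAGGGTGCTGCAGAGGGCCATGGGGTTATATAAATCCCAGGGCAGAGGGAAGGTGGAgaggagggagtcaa
RefSeq and GENCODE place these starts differently, so the window of Cd209g lies inside the GENCODE gene and that of Cd209f overlaps its end. The run ends 1 base before the start of Cd209f and 15 bases before that of Cd209g. In the other pairs of the 7 Cd209 promoters the longest identical run had 7 to 12 bases, and of 27025 promoters in the RefSeq table only these 2 held the whole run.

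Of the 60 genes, 47 matched a RefSeq promoter. The core of the motif of PU.1, a factor of all macrophages (GAGGAA, or TTCCTC on the other strand), was in 22 of the 47 (46.8%) and in 6252 of all 27025 promoters of that length (23.1%). The half-site of MAF factors (TGCTGA, or TCAGCA) was in 9 (19.1%) and in 15.8% of all. Shown with matches in capitals are 4 leading genes, with the PU.1 core in Mrc1 (chr2:14229164-14229413, plus), F13a1 (chr13:37050245-37050494, minus) and Pf4 (chr5:90772185-90772434, plus) and the MAF half-site in Folr2 (chr7:101857191-101857440, minus).
Mrc1: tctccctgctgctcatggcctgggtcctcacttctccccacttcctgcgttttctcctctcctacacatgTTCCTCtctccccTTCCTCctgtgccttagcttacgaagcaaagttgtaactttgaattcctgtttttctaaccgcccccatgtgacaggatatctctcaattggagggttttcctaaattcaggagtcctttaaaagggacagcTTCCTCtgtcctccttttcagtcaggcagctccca
F13a1: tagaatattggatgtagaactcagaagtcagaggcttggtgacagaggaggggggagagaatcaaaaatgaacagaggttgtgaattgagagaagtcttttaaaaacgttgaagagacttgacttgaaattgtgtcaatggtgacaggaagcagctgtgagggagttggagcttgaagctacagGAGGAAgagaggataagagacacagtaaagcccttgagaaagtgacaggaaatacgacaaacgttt
Pf4: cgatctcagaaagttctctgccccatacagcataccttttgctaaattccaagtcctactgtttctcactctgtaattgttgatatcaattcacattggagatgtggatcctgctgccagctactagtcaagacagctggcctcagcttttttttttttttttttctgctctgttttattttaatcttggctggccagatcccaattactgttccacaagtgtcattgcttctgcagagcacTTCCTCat
Folr2: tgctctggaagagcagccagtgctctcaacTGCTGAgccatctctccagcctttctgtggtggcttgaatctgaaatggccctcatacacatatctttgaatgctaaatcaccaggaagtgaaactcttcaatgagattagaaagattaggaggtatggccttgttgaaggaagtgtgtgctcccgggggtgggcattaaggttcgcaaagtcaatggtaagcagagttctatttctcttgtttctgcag
Among the other leading genes, the window of Fcna held 3 PU.1 cores and 2 MAF half-sites, and Ccl24 had no matched promoter. The windows of Cd209f, Cd209g, Cd209b, Pla2g2d, Cd163 and Ltc4s held neither motif. A match describes letters and is no measured binding site.

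Against Mb macrophages, 264 of 1672 genes tested (15.8%) were at least 2-fold higher in Ma and 187 (11.2%) at least 2-fold lower by edgeR's quasi-likelihood test with Benjamini-Hochberg adjustment. Without Young A, which held most of the Mb cells, 112 were higher and 104 lower, and without Young B 398 and 286. The 12 with the largest differences upward were Ccl24, Fcna, Cd209f, Lyve1, Retnla, Cbr2, Cd209d, Cd209g, C4b, Cd163, Igf1 and F13a1. Of 19 tested scavenger and lectin receptors 16 were higher and 1 was lower, with a median log2 difference of 6.63 (5.88 with genes without counts set at their bound) against 0.05 over all genes. The list holds Mrc1, Cd209f and Cd163, by which the study told Ma from Mb, so these counts partly restate the grouping. The counts were the same without cells rich in markers of other types.

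Timd4, a receptor for the phosphatidylserine of dying cells, stood at 273, 168 and 109 CPM in Ma against 1.93, 0 and 0 in Mb. Clec10a, a galactose-binding lectin, stood at 567, 995 and 541 CPM against 5.78, 0 and 10.8 (log2 difference 6.48 ± 0.46), and its paralog Mgl2 at 698, 682 and 303 against 55.8, 65.2 and 21.6. Both were also higher than in dendritic cells, whereas Timd4 did not pass against them (0.96 ± 0.35). Clec4n (dectin-2), a receptor for fungal mannans, was the lower member, at 25.3, 33.5 and 17 CPM against 239, 91.2 and 75.5. Marco, another scavenger receptor, and Vsig4, a complement receptor, were at means of 1.69 and 2.27 CPM in Ma.

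**Figure D2:**
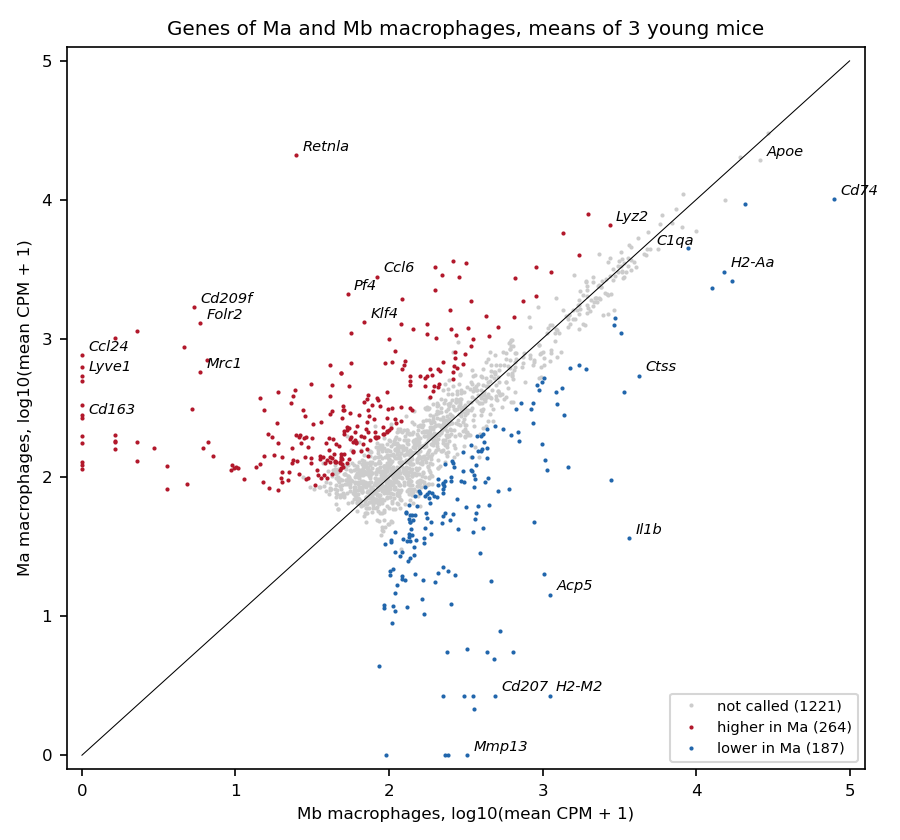
Mean CPM of 3 young mice in Mb (x) and Ma (y) macrophages for the 1672 genes tested, as log10(CPM + 1), with 264 genes called higher in Ma in red, 187 called lower in blue and 1221 others in grey. Retnla, at 20859 CPM in Ma and 23.9 in Mb, lies far above the diagonal, and Il1b, at 35.8 and 3681, far below it.

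The 12 largest differences downward were H2-M2, Mmp13, Cadm1, Ocstamp, Cd207, Glipr1, Dcstamp, H2-Oa, Zmynd15, Il1b, Lpcat2 and Arl5c. H2-M2, an MHC class Ib gene, stood at 5.06, 0 and 0 CPM in Ma against 1030.1, 1589.7 and 712 in Mb. The collagenase Mmp13 had no UMI in Ma against 159.8, 599 and 205 CPM, at least 41.6-fold lower, and the elastase Mmp12 stood at 0, 0 and 13.6 against 431, 1042 and 442. Ocstamp, needed for the fusion of osteoclasts and macrophages, had no UMI against 221, 339 and 162, and its partner Dcstamp stood at 0, 0 and 3.4 against 410.1, 339 and 324. Acp5, the tartrate-resistant phosphatase of osteoclasts, stood at 15.2, 11.2 and 13.6 CPM against 1019, 1290.0 and 1068 (log2 difference -6.32 ± 0.34). H2-M2, Mmp13, Ocstamp, Dcstamp, H2-Oa and Il1b were picked for large differences of the same direction in every young mouse. Mmp12 and Mmp13 are genes by which the study told Mb from Ma. Separation in these genes therefore follows from the choice.

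MHC class II genes were low in Ma. All 7 tested members were lower than in Mb (median log2 difference -2.60 against 0.05 over all genes), beside 11.2% of all genes. All 9 tested against dendritic cells were lower there (median -2.41 against 0.10 over all genes), beside 6.37% of all genes. H2-Ab1, a chain of the peptide-binding dimer, stood at 2449.7, 3052 and 2261 CPM in Ma, 19587, 15923 and 15881 in Mb and 12105, 11468 and 11221 in dendritic cells. H2-Oa, which tunes peptide loading, had no UMI in Ma against 94.3, 104 and 86.3 CPM in Mb, at least 18.3-fold lower. H2-Oa was picked for its large difference. The paper names H2-Oa, H2-Ab1 and other MHC class II genes as higher in Mb in these same cells. Their lower level in Ma is therefore no independent finding. Cd86, a costimulator of T cells, stood at 40.5, 157 and 85.1 CPM against 198, 326 and 356. The integrin Itgax (CD11c), on which such cells are often sorted, had 1 UMI in Ma against 156, 65.2 and 64.7 CPM in Mb.

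Cell by cell, MHC class II genes took a median of 1.02%, 1.73% and 1.16% of UMIs in Ma of the 3 mice. Of the 121 Ma cells, 83 lay below the lowest Mb cell of their own mouse, none lay above the median Mb cell, and 6 lay above the median dendritic cell. Scavenger and lectin genes took a median of 0.798%, 0.836% and 0.828%, and 116 Ma cells lay above the highest Mb cell of their mouse and 77 above the highest dendritic cell. Mrc1, Cd209f and Cd163 are among these genes, so this separation partly restates the grouping.

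**Figure D3:**
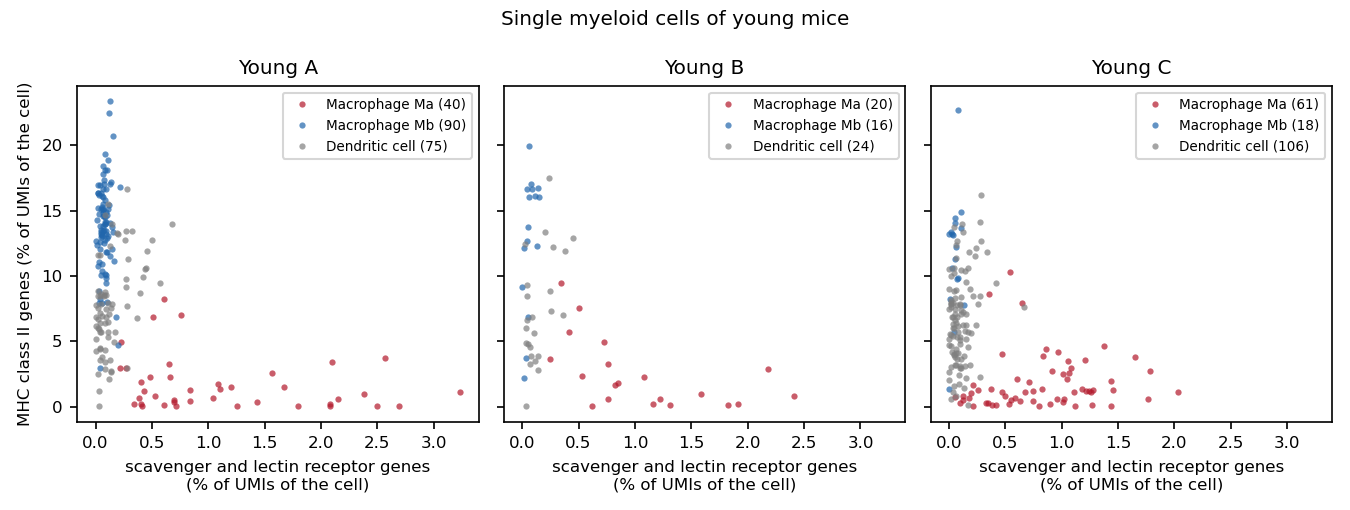
Share of each cell's UMIs from scavenger and lectin receptor genes (x, %) and from MHC class II genes (y, %), 1 point per cell and 1 panel per young mouse, for Ma, Mb and dendritic cells. Of 121 Ma cells, 116 lie right of the highest Mb cell of their mouse and 83 lie below the lowest.

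General macrophage genes were shared in unequal amounts, with 2 of 14 tested members higher than in Mb (Csf1r and the lysozyme Lyz2), a share near the 15.8% of all genes, and 7 lower (11.2% of all genes). Without cells rich in markers of other types 1 was higher and 7 were lower. Csf1r, the receptor for the growth factor macrophages need, stood at 496, 659.6 and 572 CPM in Ma against 337, 222 and 227 in Mb (log2 difference 1.01 ± 0.29). Adgre1, a surface receptor used to stain macrophages, stood at 294, 190.1 and 153 CPM against 131, 143 and 151, which did not pass the test (0.53 ± 0.32). Cd14, a co-receptor for lipopolysaccharide, was lower, at 283, 537 and 415 CPM against 2357, 3297 and 4564 (-3.14 ± 0.23). Aif1 (Iba1), an actin-bundling protein, was lower as well, at 440.3, 380.1 and 191 CPM against 1396, 1173 and 1176.

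Lysosomal genes went both ways, 3 of 21 tested higher than in Mb, a share near the 15.8% of all genes, and 8 lower (11.2% of all genes). Ctss, the cathepsin that degrades the invariant chain of MHC class II, stood at 557, 559 and 507 CPM against 4043, 4508 and 4229 (log2 difference -3.05 ± 0.19). Ctsl was higher, at 506, 391 and 463 CPM against 159.8, 235 and 119, as was progranulin (Grn), a lysosomal and secreted protein, at 896, 1241 and 916 against 158, 169 and 281.

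Complement and uptake genes were partly common to both macrophage groups. C1qa, part of the C1q complex that coats dying cells, stood at 5492, 4494 and 3319.5 CPM in Ma and 6731, 4443 and 3798 in Mb, which did not pass (log2 difference -0.24 ± 0.17), and at 126, 18.1 and 107 in dendritic cells (5.31 ± 0.39). Of 9 tested complement genes 3 were higher than in Mb, beside 15.8% of all genes, and none lower. Properdin (Cfp), which stabilises the alternative pathway convertase, stood at 926, 615 and 500.5 CPM against 599, 39.1 and 32.4, with the Mb value of Young A within the Ma range. Gas6, the bridging ligand of the uptake receptors Axl and Mertk, stood at 258, 537 and 327 CPM against 7.7, 0 and 32.4, while Axl was lower at 40.5, 112 and 71.5 against 183, 195 and 151. The inhibitory Fc receptor Fcgr2b, the neonatal Fc receptor Fcgrt and Fcrls were higher than in every other type. Fcgr2b stood at 248, 313 and 296 CPM against 50.1, 39.1 and 32.4 in Mb. The next type for Fcgr2b was the dendritic cell, at 132, 118 and 104 CPM (log2 difference 1.05).

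Of 15 tested chemokines 8 were higher than in Mb and 4 lower, beside 15.8% and 11.2% of all genes. Pf4 (Cxcl4) stood at 2409, 2337 and 1522 CPM in Ma against 15.4, 78.2 and 64.7, and Ccl6 at 3158, 2750.2 and 2479 against 84.7, 78.2 and 86.3 (log2 difference 5.00 ± 0.25). Ccl24, which attracts eosinophils, stood at 688, 593 and 994 CPM with no UMI in Mb, at least 190.2-fold higher, and Ccl8 at 744, 1799.9 and 855 against 3.85, 0 and 0. These 4 were also higher than in every other cell type. The next type for Ccl6 was the dendritic cell, at 537, 634 and 983 CPM (log2 difference 1.74). A UMI of Ccl6 was found in 61.5% of dendritic cells and 95.9% of Ma cells. For Ccl8 the next type was the fibroblast, at 66.2, 124 and 148 CPM (3.17). Cxcl16 was lower, at 121, 112 and 102 CPM against 1080.1, 977 and 1154. Cxcl2, which attracts neutrophils, lay between the other myeloid types, at 3279.7, 5322 and 4923 CPM in Ma, 6071, 11909.6 and 8501 in Mb and 529, 707 and 1573 in dendritic cells.

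Il1b, an inflammatory cytokine, stood at 35.4, 44.7 and 27.2 CPM in Ma, 4627, 3375 and 3042 in Mb (log2 difference -6.81 ± 0.28) and 741, 1794 and 1029 in dendritic cells (-5.37 ± 0.53). It was picked for its large difference from Mb. The anti-inflammatory Il10 was lower than in Mb too, at 15.2, 33.5 and 34 CPM against 300.4, 391 and 485, as was the interleukin-1 antagonist Il1rn. Tnf stood at 60.7, 570.2 and 296 CPM in Ma and 181, 1589.7 and 766 in Mb, with Young A lowest and Young B highest in both. Retnla, a secreted protein that interleukin-4 induces, stood at 13559, 22985 and 26032 CPM in Ma, 15.4, 13 and 43.2 in Mb (9.62 ± 0.29) and 1897, 2228 and 8199 in dendritic cells (2.36 ± 0.30). Over 1% of UMIs were Retnla in 30 of 205 dendritic cells, 24 of them in Young C.

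**Figure D4:**
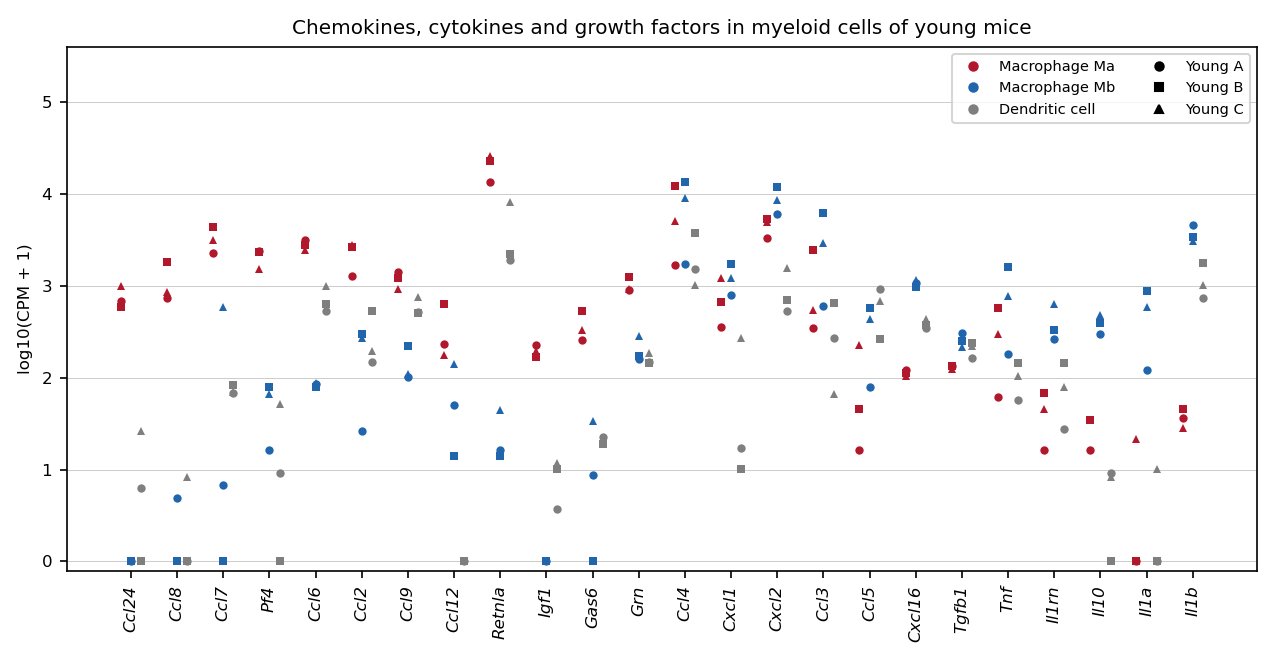
Chemokines, cytokines and growth factors in Ma, Mb and dendritic cells of young mice, as log10(CPM + 1), 1 point per mouse. Ma points for Pf4, Ccl6, Ccl8, Ccl24 and Retnla lie above those of both other types, and Ma points for Il1b (27.2 to 44.7 CPM) lie below them.

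Genes that mark interleukin-4 activated macrophages were high as a list but not in all members. Against Mb 11 of 12 tested were higher and none lower (median log2 difference 8.11, or 6.56 with genes without counts at their bound), among them Cbr2, a carbonyl reductase, at 420.1, 615 and 453 CPM against 0. Of all genes 15.8% were higher and 11.2% lower. The list holds Mrc1 and Cd163, by which the study told Ma from Mb, and 9 members higher than in every other type. Its count therefore partly restates the grouping. Arg1 (arginase) and Pdcd1lg2 (PD-L2) had no UMI in Ma, and Chil3 (Ym1) had 1. Of 6 tested genes of classical activation none was higher than in Mb and 3 were lower (Il1b, Tnf and Cd86). Il1b was among the genes picked for large differences from Mb. Nos2, the inducible nitric oxide synthase, had no UMI in Ma, Mb or dendritic cells. The paper proposes that Ma and Mb have no clear link to M1/M2 polarization, the classical and interleukin-4 activated states.

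Of 17 tested transcription factor genes 6 were higher than in Mb and 4 lower (15.8% and 11.2% of all genes). Without cells rich in markers of other types 6 were higher and 2 lower of 13 tested. Maf, a factor that restrains macrophage proliferation, stood at 309, 425 and 296 CPM in Ma against 7.7, 26.1 and 32.4 in Mb (log2 difference 4.26 ± 0.44). Klf4 stood at 1073, 1655 and 1236 CPM against 59.7, 26.1 and 119. Irf8 and Runx3, which act in dendritic and other myeloid cells, were lower than in Mb and in dendritic cells, Irf8 at 60.7, 44.7 and 57.9 CPM against 214, 352 and 129 in Mb. Spic, a factor of iron-recycling macrophages, had no UMI in Ma against 36.6, 299.7 and 194 CPM in Mb. The study told Mb from Ma by Spic as well, so its separation restates the grouping. Spi1, which encodes PU.1, was lower than in Mb, at 233, 190.1 and 242 CPM against 419.7, 469 and 421.

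Immediate early and heat shock genes, which dissociation of tissue can induce, were higher in Ma for 15 of 17 members against Mb (median log2 difference 1.97) and 9 of 17 against dendritic cells (1.29), with none lower in either. Of all genes 15.8% were higher against Mb and 7.72% against dendritic cells. Jun stood at 1777, 2325 and 1474 CPM in Ma against 227, 430.0 and 367 in Mb, and Hspa1a, a heat shock protein, at 901, 2314 and 633 against 59.7, 65.2 and 399. Several markers of other cell types were also higher in Ma than in Mb. The 7 fibroblast markers summed to 1356, 838 and 2332 CPM in Ma and 360.0, 78.2 and 669 in Mb, with 4 of 4 tested members higher. The 8 endothelial markers summed to 4560.2, 5221 and 1981 CPM against 469.8, 287 and 313, of which Fabp4 alone made up 4084, 4695 and 1767 in Ma, and the 10 epithelial markers to 2936, 906 and 4375 against 820.2, 3205 and 2988. Of the 8 epithelial markers tested 2 were higher, beside 15.8% of all genes, and the epithelial sum was lower in Ma than in Mb in Young B. Without the cells rich in such markers 255 genes were higher and 200 lower than in Mb, of which 229 and 172 were among the 264 and 187, and 15 of 17 immediate early and heat shock genes were again higher. The part of RNA from other cells in single genes was not tested.

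Some genes higher than in Mb were also at high levels in stromal cells, beside those marker sums. Ccl2, which attracts monocytes, stood at 1291, 2661 and 2765 CPM in Ma against 25, 299.7 and 269.7 in Mb, and its mean in fibroblasts was 2409. C4b stood at 299, 235 and 309.8 CPM with no UMI in Mb and a fibroblast mean of 315, and the growth factor Igf1 at 228, 168 and 194 with no UMI in Mb and a fibroblast mean of 150.1. Fabp4, a fatty acid binding protein, had a mean of 34166 CPM in vascular endothelium, and over 1% of UMIs were Fabp4 in 16 Ma cells while the median Ma cell held 0.0426% or less in each mouse.

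Lipid, iron and interferon genes differed by member. Apoe stood at 18302, 19139.6 and 20622 CPM in Ma and 17575, 26269 and 34566 in Mb, which did not pass (log2 difference -0.46 ± 0.18), and at 239, 154 and 475 in dendritic cells. The phospholipid transfer protein Pltp was higher than in every other type, at 1215, 1051 and 998 CPM against 38.5, 52.1 and 75.5 in Mb. The next type for Pltp was vascular endothelium, at 453, 568 and 478 CPM (log2 difference 1.19). Hmox1, which breaks down haem, stood at 562, 894 and 1518 CPM against 23.1, 78.2 and 194, whereas the ferritin chain Fth1 was lower at 7809.6, 10822 and 9519 against 22568, 19649.5 and 20628. Of 9 tested interferon-stimulated genes 5 were higher than in Mb and none lower, beside 15.8% and 11.2% of all genes, and Rsad2 (viperin) stood at 142, 1174 and 1018 CPM against 27, 665 and 237, with Young A lowest in both groups.

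Against dendritic cells 681 of 8816 genes (7.72%) were at least 2-fold higher in Ma and 562 (6.37%) at least 2-fold lower. With RLE in place of TMM scaling the counts were 1352 and 278 and the median over all genes moved from 0.10 to 0.55, so the number of genes in each direction depends on the scaling. Without Young C 309 were higher and 291 lower, without Young B 434 and 519, and without Young A 658 and 360. The largest differences upward were Cd209g, Fcna, Lyve1, Ccl12, Cd209f, Mmp9, Mertk, Npl, Cd5l, Tlr7, Enpep and Tnfrsf17. Mertk, a receptor for the uptake of dying cells, stood at 50.6, 89.4 and 34 CPM in Ma with no UMI in dendritic cells, at least 16.6-fold higher. The gelatinase Mmp9 stood at 86, 101 and 37.5 CPM with no UMI in either Mb or dendritic cells, at least 14.6-fold and 21.9-fold higher. Of 22 tested scavenger and lectin receptors 17 were higher and 1 lower, of 18 complement genes 10 and 1, and of 22 lysosomal genes 11 and 1.

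The largest differences downward against dendritic cells were Ccr7, H2-Oa, Il1r2, Ly6c2, Ramp3, P2ry10, Cadm1, Gpr171, Siglecg, Gm15987, Havcr2 and Clec9a, none of which had a UMI in Ma. Ccr7, which guides dendritic cells to lymph nodes, stood at 199, 127 and 237 CPM in them, so Ma was at least 40.9-fold lower, and Clec9a, a marker of cross-presenting dendritic cells, at 34.9, 36.2 and 34.6. Ccr2, the receptor of recruited monocytes, stood at 25.3, 33.5 and 30.6 CPM in Ma against 121, 208 and 118 in dendritic cells (log2 difference -2.49 ± 0.44). The comparisons with Mb and with dendritic cells share the Ma sums. In them 156 genes were higher than in both types and 73 lower than in both. Singly, 264 of 1672 genes (15.8%) were higher than in Mb and 681 of 8816 (7.72%) higher than in dendritic cells. Lower were 187 (11.2%) and 562 (6.37%). The 2 comparisons tested different sets of genes, and whether the overlap exceeds what these shares give was not tested.

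Ma cells varied in the genes that set them apart. Cells without a UMI of Lyve1 (9, 7 and 18 cells in Young A, B and C) had median MHC class II shares of 2.98%, 4.93% and 1.23%, and cells with one (31, 13 and 43) had 0.699%, 0.622% and 1.14%. Median shares of Retnla were 0%, 0% and 1.17% without and 0.998%, 2.74% and 3.24% with Lyve1. The order was the same in each mouse, and in Young C the MHC class II medians lay close together. Cells without a UMI of Cd209f (8, 4 and 9) likewise had median MHC class II shares of 3.96%, 4.70% and 1.65%, against 0.614%, 0.895% and 1.13% in cells with one. For Mrc1 and Cd163 the order was not the same in all mice. The medians were 0.670%, 3.62% and 0.621% without and 1.09%, 1.32% and 1.21% with a UMI of Mrc1, and 0.931%, 1.97% and 1.23% without and 1.02%, 1.37% and 0.937% with one of Cd163. By Lyve1, median depths were 4518, 3496 and 4336 UMIs without and 4597, 4527 and 4229 with Lyve1, and the markers of other cell types took a median of 0.569% without and 0.0819% with Lyve1 in Young C. A UMI of Retnla was found in 30 of 40 Ma cells of Young A, 14 of 20 of Young B and 59 of 61 of Young C. The proliferation gene Mki67 was found in 5 of 121 Ma cells, 4 of them in Young A, and in 12 of 124 Mb cells, 11 of them in Young A.

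Ma macrophages made up 18.3%, 28.2% and 29.2% of immune cells in the young mice and 2.5%, 0%, 0% and 0% in the aged mice. The mean was 25.2% ± 5.99 (SD, n = 3) against 0.625% (n = 4, values above), a difference of 24.6 percentage points (exact two-sided permutation test over 35 divisions of the mice, p = 0.0286, the smallest they allow). Of all cells the shares were 1.78%, 1.58% and 2.13% in young mice and at most 0.0607% in aged mice, and of macrophages 30.8%, 55.6% and 77.2% against at most 10% (exact permutation test, p = 0.0286 for each). The single Ma cell of an aged mouse, from Aged A, held 3 of the 4 markers. The aged mice had 40, 35, 10 and 11 immune cells, so 0 cells allowed shares of up to 8.57%, 30% and 27.3% in Aged B, C and D, taken as 3 cells of the total. The exact binomial 95% upper bounds, which the plot of shares shows, were 10.0%, 30.8% and 28.5%, and both cover counting error only. Barcodes are written differently for the young and the aged libraries, and in these data age cannot be told apart from the handling of those sets of libraries. The paper also stained tissue sections for CD163 protein, outside these libraries and with older aged mice. There it reported fewer Ma macrophages with age.

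**Figure D5:**
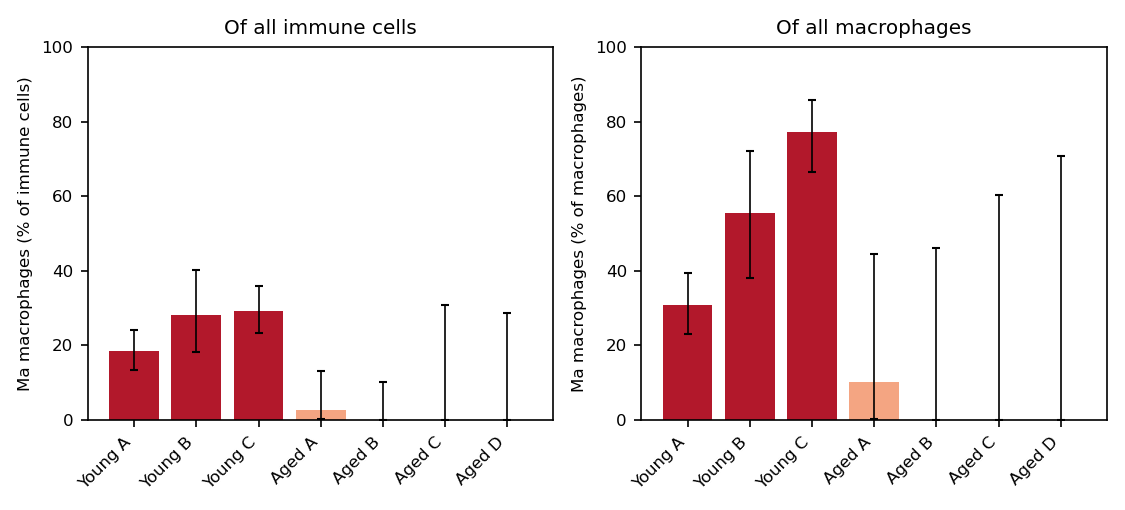
Ma macrophages as a percentage of immune cells and of macrophages in each mouse, with exact binomial 95% intervals as error bars. Young mice lie at 18.3 to 29.2% of immune cells and aged mice at 2.5% or 0%, with wide intervals for the aged mice, which had 10, 6, 4 and 3 macrophages.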

How the data were processed

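Single cells of number 4 mammary glands from 3 young and 4 aged mice were analysed, 1 library per mouse. The authors aligned reads to mm10 with Cell Ranger 2.0 and deposited UMI counts for 27998 genes per cell, of which 8959 had no count. They also deposited each cell's UMI and gene counts, the fraction of mitochondrial UMIs, cell cycle scores and cell type names, all of which follow from their own filtering and clustering. Scores were used only as deposited phases and are not compared.

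The counts of each type's cells in a mouse were added up where there were at least 3 cells. These sums were tested with edgeR 4.0.16 (TMM factors, filterByExpr, quasi-likelihood F-test, Benjamini-Hochberg adjustment, R 4.3.3), with the mouse as block, since cell types came from the same animals. Ma and Mb were fitted as a pair, and dendritic cells and the other types in 1 fit over all types. Against Mb and dendritic cells a gene was called at an adjusted p under 0.05 and a difference of at least 2-fold. Against every other type it had to be at least 25% higher, at an adjusted p under 0.05, in each of the 12 contrasts. Groups without counts were set to 3 UMIs over the group to give bounds, and ratios against 1 to 3 UMIs were read with counting intervals. Intervals and limits cover counting error only. Doublets were marked with Scrublet (scanpy 1.11.5) and kept, and DESeq2 1.42.0 was an alternative. The fits were also run on simulated counts that held no mouse effect, and the outcome is not reported here.

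Named are the 4 markers, members of gene lists, and the 12 called genes with the largest differences per comparison and direction that moved alike in every young mouse. Hal, which had no UMI in Young B, was added after its values were seen. The members and lists were chosen with earlier results of these data known. Names of cells were taken as deposited. Clec7a and Cd209h were not analysed here, and some items are not reported here.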

Additional observations from a re-analysis of the deposited data

Results flagged for a closer look

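The share of Ma macrophages in Aged A stood apart from the 3 other aged mice, which had none. It was 2.5% of immune cells, 0.0607% of all cells and 10% of macrophages, and all 3 values come from the same single cell. Among values that vary freely chance sets a sample apart in about 1 of 20 groups, a rate that does not apply here, since with 3 mice at 0 any other value stands apart.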

How the results depend on the processing

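Differences in the share of Ma cells kept their direction in every alternative run. Without 1 mouse they ranged from 22.6 to 28.1 percentage points of immune cells, from 1.67 to 1.94 of all cells and from 40.7 to 63.9 of macrophages, at the smallest p these designs allow in an exact permutation test (0.0667 or 0.1). With the replicate letter as a block the differences were 24.4, 1.81 and 51.2 (exact sign-flip test, p = 0.25, the smallest possible), and the letters pair no young mouse with an aged one. The difference in mitochondrial percentage, near 0, ranged from -0.0462 to 0.0262 without 1 mouse, changed sign without Young B, and was 0.274 with means over cells in place of medians. Against Mb 407 genes were higher and 313 lower without a filter on low counts, and 700 and 464 in 1 fit over all types. Leaving out 1 mouse gave 112 to 398 higher and 104 to 286 lower. Against dendritic cells RLE factors gave 1352 and 278, DESeq2 1337 and 207, and a fit of Ma and dendritic cells alone 447 and 294, and leaving out 1 mouse gave 309 to 658 and 291 to 519. Higher than every other type were 31 genes with DESeq2, 101 with at least 10 cells per sum, which left 9 types to compare, and 41 to 55 without 1 mouse. Without the mouse as replicate block 231 and 165 genes were called against Mb, 565 and 486 against dendritic cells and 51 against every type. Without cells rich in markers of other types, an alternative chosen after seeing the data, 255 and 200, 546 and 654, and 65 genes were called. The cause of these changes was not tested. Of the log2 differences of named genes under alternatives, 821 against Mb and 882 against dendritic cells kept direction and call, and 23 and 40 kept the direction but lost the call. Mb sums of 76745 UMIs in the smallest mouse limit what low genes can show.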
